A study of Mus musculus with 12 samples.

Results

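The 7 genes described here, Ankrd37, Fam162a, Ndrg1, Higd1a, Mif, Ddit4 and Sap30, are textbook targets of the hypoxia-inducible factors (HIF) that act outside sugar metabolism. They were taken by symbol from a table of 23422 genes, and all 7 were found. They were chosen by symbol with their measured FPKM response to low oxygen in these libraries already known, so their values in hypoxia against normoxia are given as a description with no test, and tests are given for the comparisons between genotypes. RNA was sequenced from primary mouse lung endothelial cells, either wild type C57BL/6J or double knockout for MLK2 and MLK3 (MLK2-/-MLK3-/-), 2 mixed lineage kinases that act upstream of the JNK pathway. Cells stayed at 21% oxygen (normoxia) or spent 90 min at 1% oxygen (hypoxia). Each of the 4 groups has 3 libraries, and the labels name no other agent or allele. Nothing in the labels ties the 3 libraries of any group to different cultures or animals, and the p-values below measure only the spread between these libraries, which may be technical.

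When oxygen is sufficient, prolyl hydroxylases mark the HIF alpha subunits for destruction by the VHL ubiquitin ligase. When oxygen falls, the alpha subunits persist, pair with ARNT and bind a short DNA core near their target genes. In endothelium these targets include genes of sprouting, mitochondrial turnover and stress signalling as well as the glycolytic enzymes.

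The 2 disrupted genes were checked first. Map3k10, which encodes MLK2, was at 16.6 to 19.2 FPKM (fragments scaled to transcript length and library size) in wild type. In the double knockout it was at 0.131 to 0.169 FPKM in normoxia and 1.02 to 1.34 FPKM in hypoxia. That rise passed (limma log2 difference 0.92, adjusted p = 3.12e-06), as did its difference from the wild type response (1.02, limma adjusted p = 0.00375). The cause was not tested. Map3k11, which encodes MLK3, was at 31.9 to 36.4 FPKM in wild type and at 10.9 to 12.2 FPKM in the double knockout, and the labels do not give the exons that the alleles lack. The summed level of 10 endothelial markers was 2827 to 3045 FPKM over all libraries. Vwf was the single marker under a mean of 1 FPKM. Most of the sum was Emcn and Pecam1, and it does not show how single markers differed. In hypoxia Cldn5 was at 183.7 to 214.9 FPKM in the double knockout and 260.6 to 317.5 FPKM in wild type. Kdr was also lower in double knockout hypoxia (62.1 to 63.0 against 64.5 to 69.2 FPKM). Pecam1 (622.9 to 640.2 against 548.1 to 583.3 FPKM) and Erg (209.0 to 215.8 against 191.7 to 196.1 FPKM) were higher. The 5 epithelial markers together stayed at or under 0.149 FPKM. The 7 macrophage markers summed to 21.8 to 31.0 FPKM in wild type and to 62.4 to 75.8 FPKM in the double knockout. Most of that was Lyz2, at 16.9 to 25.7 FPKM in wild type and 55.4 to 69.0 FPKM in the double knockout. Cd68 averaged lower in double knockout normoxia (2.656 against 2.965 FPKM) and higher in its hypoxia (3.377 against 2.795 FPKM). Tyrobp averaged higher in both (1.988 against 1.111 and 1.517 against 1.415 FPKM), as did Fcer1g (0.9525 against 0.6769 and 1.436 against 0.9709 FPKM). Ptprc, Csf1r and Adgre1 were under a mean of 1 FPKM. The 4 lymphatic endothelial markers summed to 482.2 to 592.8 FPKM in wild type and to 372.1 to 444.7 FPKM in the double knockout. Most of that was Lyve1, at 335.5 to 407.7 FPKM in wild type and 234.7 to 279.5 FPKM in the double knockout. Prox1 and Flt4 were also lower on average at both oxygen levels. Pdpn went the other way in normoxia (means of 51.2 and 60.8 FPKM) and was level in hypoxia (57.1 and 57.2 FPKM). The 5 fibroblast markers summed to 1.57 to 2.33 FPKM in wild type and 3.72 to 4.23 FPKM in the double knockout, and the 6 mural markers to 2.33 to 4.27 and 4.71 to 6.59 FPKM. Most of the fibroblast sum was Dcn (1.16 to 1.65 and 2.73 to 3.20 FPKM). Most of the mural sum was Acta2 (1.96 to 3.92 and 4.24 to 6.22 FPKM). The other markers of both lists were under a mean of 1 FPKM. The part of these shifts in the genotype comparisons below was not tested. In bulk RNA, fewer cells of a type and less RNA per cell cannot be told apart. Depth was estimated at 21000000 to 25600000 fragments per library.

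HIF binds DNA at the core ACGTG or GCGTG, which read CACGT and CACGC on the other strand. RefSeq promoter windows on GRCm38.p6, from 250 bases before the start site to 50 bases after it, were matched for 6 of the 7 genes, and Ndrg1 had none. Within the 250 upstream bases, 5 of the 6 windows held a core, and 4 held ACGTG. Among the 10881 windows of genes tested here, 57.1% held either core and 22.0% held ACGTG upstream, and over all 32851 windows these shares were 38.6% and 16.6%. Windows rich in G and C hold the core more often. Of the 8395 windows with at least the GC content of the poorest of the 6 (54.0%), 63.2% held either core and 23.6% held ACGTG. A match is a description of the letters and not a binding site.

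The stretches that lie outside any annotated exon are shown for the 4 genes with ACGTG on either strand within the 250 upstream bases. A link between cores and responses was not tested. Each is on the minus strand of GRCm38.p6 and written 5′ to 3′ along the gene, with the cores in capitals. That of Ankrd37, chr8:45999868-46000100, reaches to the start of the listed transcript, 17 bases upstream of the RefSeq start site. That of Fam162a, chr16:36071595-36071684, has 4 cores in 90 bases. The Ddit4 stretch is chr10:59951835-59952020 and the Sap30 stretch is chr8:57487861-57488053.
Ankrd37: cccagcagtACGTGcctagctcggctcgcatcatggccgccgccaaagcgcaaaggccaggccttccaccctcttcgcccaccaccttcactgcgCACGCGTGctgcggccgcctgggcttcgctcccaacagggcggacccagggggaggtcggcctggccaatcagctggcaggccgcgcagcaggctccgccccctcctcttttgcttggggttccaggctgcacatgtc
Fam162a: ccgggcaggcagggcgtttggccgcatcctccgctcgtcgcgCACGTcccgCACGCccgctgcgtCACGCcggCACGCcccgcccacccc
Ddit4: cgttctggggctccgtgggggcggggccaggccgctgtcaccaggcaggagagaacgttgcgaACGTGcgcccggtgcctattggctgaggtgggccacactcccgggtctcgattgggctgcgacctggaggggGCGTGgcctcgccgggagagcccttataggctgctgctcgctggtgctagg
Sap30: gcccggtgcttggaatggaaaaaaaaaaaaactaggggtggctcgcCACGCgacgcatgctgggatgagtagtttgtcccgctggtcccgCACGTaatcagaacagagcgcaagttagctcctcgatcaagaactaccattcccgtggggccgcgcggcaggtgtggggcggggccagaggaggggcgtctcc
In Ankrd37 a pair of cores on opposite strands overlaps, beginning 155 and 152 bases before the start site, and a further core begins 6 bases before it, inside the first exon of the listed transcript. Fam162a held the most, 6 cores in the 250 bases. Higd1a held 2 GCGTG cores, 70 and 66 bases before its RefSeq start site and within the first exon of the transcript listed in the file, which starts 566 bases further upstream. A further core of Higd1a, ACGTG on the other strand, begins 44 bases after its RefSeq start site. Mif had neither core upstream and 1 core beginning 30 bases after its start site.

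**Figure D1:**
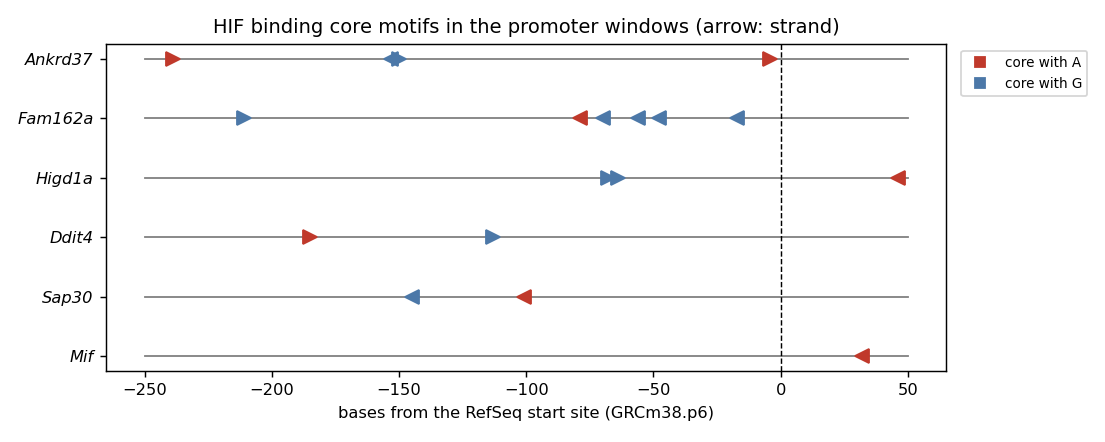
Positions of the HIF core in the 6 RefSeq promoter windows. The x axis is the distance in bases from the start site (dashed line), each arrow is 1 core pointing along its strand, red marks the core with A (ACGTG) and blue the core with G (GCGTG). Fam162a carries 6 upstream cores and Mif none.

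By level per length, Mif was the most abundant of the 7 genes in every group and Fam162a the next. In wild type normoxia the means ran from Mif at 224.4 FPKM through Fam162a at 110.4, Ndrg1 at 100.9, Ddit4 at 33.9, Sap30 at 25.1 and Higd1a at 21.8 to Ankrd37 at 3.22 FPKM. Neighbours in that order were separate in all libraries, Sap30 and Higd1a by the least, with a lowest Sap30 library of 23.30 and a highest Higd1a library of 23.26 FPKM. In wild type hypoxia Ankrd37, at 72.8 FPKM, came after Mif (359.7), Fam162a (258.8) and Ndrg1 (114.3), and ahead of Ddit4 (55.3), Higd1a (48.3) and Sap30 (32.7 FPKM). The double knockout had the same order in both oxygen levels, but Fam162a (106.3 to 118.1 FPKM) and Ndrg1 (101.2 to 107.4 FPKM) overlapped in its normoxia libraries.

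**Figure D2:**
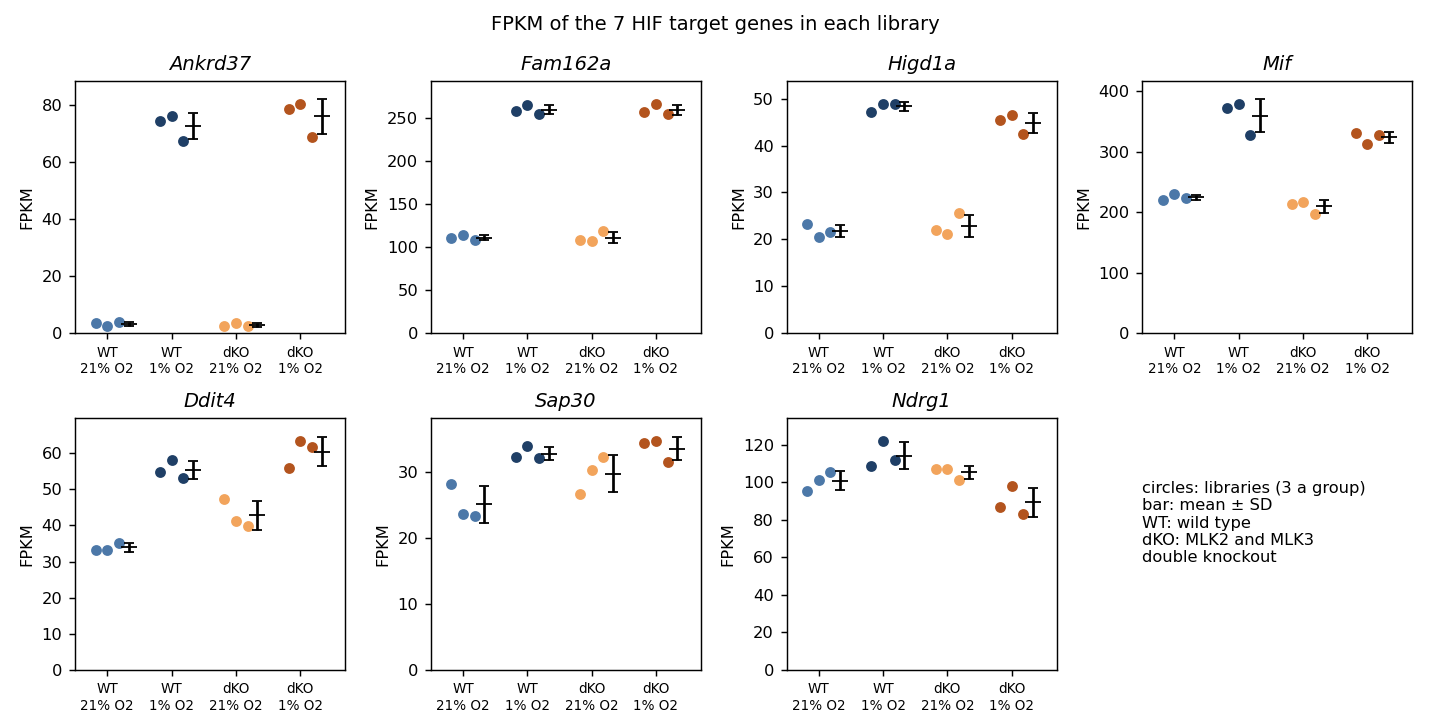
Level of each gene (y axis, FPKM, from 0) in the 4 groups, with 1 circle per library and the mean ± SD (n = 3) as a bar. Ankrd37 is near the axis in normoxia and at 67.5 to 80.4 FPKM in hypoxia, and Ndrg1 is the single gene whose hypoxia libraries lie above normoxia in wild type and below it in the double knockout.

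Ankrd37 (ENSMUSG00000050914, GRCm38 chromosome 8, 45996902 to 46005707, minus strand) encodes a small ankyrin repeat protein and is among the most oxygen-responsive HIF targets known. Wild type libraries held 3.38, 2.45 and 3.85 FPKM under normoxia, against 74.6, 76.2 and 67.5 FPKM under hypoxia. Those of the double knockout held 2.57, 3.50 and 2.44 FPKM under normoxia, against 78.8, 80.4 and 69.0 FPKM under hypoxia. Hypoxia and normoxia libraries were far apart in both genotypes, by 22.6-fold in wild type and 26.9-fold in the double knockout, and on the log2(FPKM + 1) scale no other of the 11378 tested genes had a larger difference in either genotype. The normoxia values rest on an estimated 38 to 61 fragments per library, against 976 to 1171 in hypoxia, so the fold carries the counting error of the low normoxia level. With 0.1 in place of 1 added before the logarithm, the log2 differences were 4.48 and 4.71 in place of 4.14 and 4.34. Its exons share 57 bases with Ufsp2 on the opposite strand, which was at 23.1 to 27.6 FPKM, and 186 bases with Lrp2bp, at 0.0735 to 0.917 FPKM.

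Fam162a (ENSMUSG00000003955, chromosome 16, 36043761 to 36071594, minus strand) encodes a mitochondrial protein linked to cell death in hypoxia. Normoxic wild type libraries read 110.1, 113.4 and 107.7 FPKM, and the hypoxic ones 257.8, 264.3 and 254.1 FPKM. Normoxic double knockout libraries read 107.4, 106.3 and 118.1 FPKM, and the hypoxic ones 257.0, 265.8 and 254.7 FPKM. The hypoxia libraries of both genotypes fell in the same narrow band and the normoxia libraries in another, with a fold of 2.34 in each genotype. Its exons share 168 bases with Wdr5b on the opposite strand, which was at 0.513 to 2.60 FPKM.

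Higd1a (ENSMUSG00000038412, chromosome 9, 121848563 to 121858362, minus strand) encodes a protein of the mitochondrial inner membrane that associates with the respiratory chain. Its level under normoxia was 23.3, 20.6 and 21.5 FPKM in wild type, and 22.0, 21.1 and 25.6 FPKM in the double knockout. Under hypoxia the wild type libraries had 47.3, 48.9 and 48.9 FPKM, and those of the double knockout 45.6, 46.5 and 42.5 FPKM. Hypoxia was above normoxia by 2.22-fold in wild type and 1.96-fold in the double knockout, and every hypoxia library of the double knockout lay under every one of wild type. An annotated antisense gene, Gm47112, shares 683 bases with its exons.

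Mif (ENSMUSG00000033307, chromosome 10, 75859353 to 75860240, minus strand) encodes macrophage migration inhibitory factor, a cytokine that many cells store and release. Wild type libraries had 220.1, 229.3 and 223.7 FPKM under normoxia, against 372.7, 378.9 and 327.6 FPKM under hypoxia. Double knockout libraries had 214.2, 217.2 and 197.6 FPKM under normoxia, all under those of wild type, against 330.8, 312.4 and 327.2 FPKM under hypoxia. Hypoxia was above normoxia in every library, by 1.60-fold and 1.54-fold, and wild type hypoxia library 3 lay at the level of the double knockout. Of the annotated transcripts, those of 6 other genes match its main transcript at 90% identity or more over at least 50% of its length (up to 99.4%), so its reads may be shared, and the single one listed in the file reached at most 0.472 FPKM.

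Ddit4 (ENSMUSG00000020108, chromosome 10, 59949669 to 59951834, minus strand) encodes REDD1, which restrains the growth kinase complex mTORC1 through the TSC complex and also responds to other stresses. Normoxic wild type cells had 33.2, 33.2 and 35.2 FPKM, and hypoxic ones 54.7, 58.1 and 53.2 FPKM. The double knockout started higher, at 47.4, 41.2 and 39.9 FPKM, and reached 56.0, 63.5 and 61.8 FPKM in hypoxia. All 3 double knockout normoxia libraries lay above all 3 of wild type, and the hypoxia libraries of the genotypes overlapped. The fold between oxygen levels was 1.63 in wild type and 1.41 in the double knockout.

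Sap30 (ENSMUSG00000031609, chromosome 8, 57482707 to 57487860, minus strand) encodes a subunit of the SIN3 histone deacetylase corepressor. Wild type libraries gave 28.2, 23.6 and 23.3 FPKM under normoxia, against 32.2, 33.9 and 32.1 FPKM under hypoxia, 1.31-fold apart. Double knockout libraries gave 26.7, 30.3 and 32.3 FPKM under normoxia, against 34.4, 34.7 and 31.5 FPKM under hypoxia, 1.13-fold apart. The wild type groups were separate, and those of the double knockout overlapped.

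Ndrg1 (ENSMUSG00000005125, chromosome 15, 66929318 to 66969640, minus strand) encodes a cytoplasmic protein induced by stress and differentiation and is widely used as a marker of hypoxia. Normoxic wild type libraries measured 95.6, 101.4 and 105.8 FPKM, and hypoxic ones 108.5, 122.3 and 112.1 FPKM. Normoxic double knockout libraries measured 107.1, 107.4 and 101.2 FPKM, and hypoxic ones 86.7, 98.3 and 83.2 FPKM. Hypoxia was thus above normoxia in wild type, at 1.13-fold, and below it in the double knockout, at 0.849-fold, with no overlap between oxygen levels in either genotype. The file lists 7 transcripts, and 1 of them (ENSMUST00000005256) carried 95.8 to 98.2% of the gene's FPKM in each library. It averaged 98.5 FPKM in wild type normoxia, 110.9 in wild type hypoxia, 101.2 in double knockout normoxia and 86.4 FPKM in double knockout hypoxia. The antisense gene Gm17035, named here after its values were seen, shares 419 bases with the exons of that transcript. Its wild type level averaged 33.9 ± 2.32 FPKM under normoxia against 37.9 ± 2.38 under hypoxia, and its double knockout level 35.8 ± 1.38 against 27.0 ± 2.93 FPKM (SD, n = 3). The order of the 4 groups was that of Ndrg1. The sources used here do not say that strand was counted. Reads within the shared bases, 14.5% of that Ndrg1 transcript, therefore cannot be told apart.

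By the call used for the genotype comparisons below (limma, adjusted p under 0.05), 10.5% of all tested genes were higher and 10.4% lower in wild type hypoxia (20.8% in all). In the double knockout 19.6% of all tested genes were called higher and 19.6% lower (39.3% in all). The hypoxia libraries all lay above those of normoxia for 7 of 7 genes in wild type, where that held for 18.8% of all tested genes, and 19.4% lay wholly below. In the double knockout they lay above for 5 genes (25.6% of all tested) and below for Ndrg1 (24.6%). These comparisons chose the genes, so nothing is read from the counts or from the medians that follow. The median log2 difference of the 7 was 0.69 in wild type and 0.62 in the double knockout, against 0.00 and 0.01 over all tested genes.

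Among themselves, 6 of the 7 varied together over the 12 libraries and Ndrg1 did not. Pearson's r of log2(FPKM + 1) was 0.993 between Ankrd37 and Fam162a, 0.990 between Fam162a and Higd1a, and 0.638 between Mif and Sap30, the lowest among the 6. For Ndrg1 with any of the other 6 it lay between -0.0995 and 0.0330. These values describe 12 libraries of 4 groups and follow mainly the step between oxygen levels. The genes most like Ankrd37 over the 12 libraries were Bnip3 (r = 0.998), Kdm3a (0.997) and Pgam1 (0.997), and those most like Fam162a were Tpi1 (0.998), Ldha (0.998) and Slc2a1 (0.997). Higd1a was most like Ak4 (0.997), Pfkl and Tpi1, and Mif most like Rora (0.992), Pde4d and Rsbn1. Ddit4 was most like Scamp5 (0.981), Errfi1 and Maged1, Sap30 most like Stom (0.960), Lemd2 and Dctn2, and Ndrg1 most like Arfgap3 (0.887), Sox4 and Tmem60. To the mean pattern of the 7, the 10 most alike were Cdkn1b, Slc16a3, Narf, Pfkl, Egln3, Junb, Ero1l, Ak4, Gpi1 and Egln1, with r from 0.978 to 0.988.

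The double knockout was compared with wild type at each oxygen level to ask whether loss of MLK2 and MLK3 alters the level of these targets. In normoxia Ddit4 was the single gene of the 7 to pass. It was higher in the double knockout, at 42.8 ± 4.02 against 33.9 ± 1.15 FPKM (SD, n = 3, limma log2 difference 0.33, 95% interval 0.18 to 0.47, adjusted p = 0.00972), in 3 of 3 libraries above all of wild type. In that comparison 8.16% of all tested genes passed (3.84% higher and 4.32% lower), so 1 of 7 is near the background. Libraries of the genotypes did not overlap for Ddit4 (11.6% of all tested genes were wholly higher) and Mif (14.1% were wholly lower). Sap30 had a log2 difference of 0.24 (interval 0.07 to 0.41, limma adjusted p = 0.0921), which did not pass. Its call changed with single libraries, since it passed without wild type normoxia library 1 (0.32, limma adjusted p = 0.0220) or without double knockout normoxia library 1 (0.31, limma adjusted p = 0.0321). Ankrd37 differed by -0.14 (interval -0.41 to 0.14), Mif by -0.10 (-0.22 to 0.02), Higd1a by 0.07 (-0.08 to 0.21), Ndrg1 by 0.06 (-0.08 to 0.20) and Fam162a by 0.00 (-0.09 to 0.09), and none of these passed. The interval for Fam162a is the narrowest of the 7, reaching 0.09 in either direction on the log2 scale. It rests only on the spread between these libraries, which may be technical.

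In hypoxia Ndrg1 alone of the 7 passed. It was lower in the double knockout, at 89.4 ± 7.87 against 114.3 ± 7.17 FPKM (SD, n = 3), which is 78.2% of wild type (limma log2 difference -0.35, interval -0.49 to -0.21, adjusted p = 0.00320), in 3 of 3 libraries under all of wild type. Of all tested genes 16.1% passed in this comparison (7.68% higher and 8.42% lower), so 1 of 7 is again near the background. Libraries of the genotypes did not overlap for Ndrg1 and Higd1a, both lower, where 18.4% of all tested genes were wholly lower and 17.4% wholly higher. Mif was at 89.9% of wild type (-0.15, interval -0.27 to -0.03, limma adjusted p = 0.0852) and did not pass, but did without wild type hypoxia library 3 (-0.22, limma adjusted p = 0.0110). Ddit4 did not pass here (0.12, interval -0.02 to 0.27, limma adjusted p = 0.235). Higd1a differed by -0.11 (-0.25 to 0.04), Ankrd37 by 0.06 (-0.21 to 0.34), Sap30 by 0.03 (-0.14 to 0.21) and Fam162a by 0.00 (-0.09 to 0.09).

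**Figure D3:**
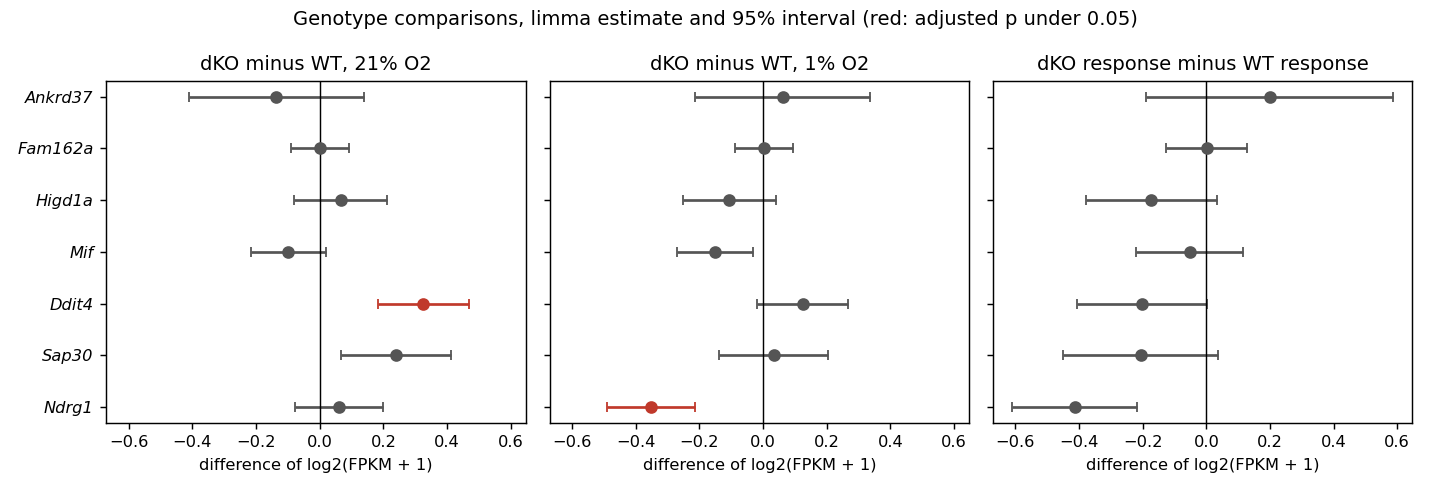
Genotype comparisons of the 7 genes. The x axis is the limma difference in log2(FPKM + 1) with its 95% interval, in normoxia, in hypoxia and for the difference between the hypoxia responses; red marks an adjusted p under 0.05. Ddit4 in normoxia (0.33) and Ndrg1 in hypoxia (-0.35) are the 2 red points.

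The difference between the hypoxia responses of the genotypes was then tested in the same fit. Both responses were known when the 7 genes were chosen, so its p-values are not independent of that choice. None of the 7 passed in limma, where 0.193% of all tested genes (22 of 11378, 0.0703% higher and 0.123% lower) did. An unadjusted p under 0.05 was held by 1 of the 7, Ndrg1, and by 1820 of all 11378 tested genes. For Ndrg1 the response of the double knockout minus that of wild type was -0.41 (interval -0.61 to -0.22, limma adjusted p = 0.0787), with the libraries of the genotypes moving in opposite directions. Without double knockout hypoxia library 2, the highest of its group, the difference was -0.48 and passed (limma adjusted p = 0.0494), and over all alternatives its adjusted p ran from 0.0494 to 0.167. Ddit4 (-0.20, interval -0.41 to 0.00), Sap30 (-0.21, -0.45 to 0.04) and Higd1a (-0.17, -0.38 to 0.03) had smaller fitted responses in the double knockout and did not pass. The intervals of Mif (-0.22 to 0.12) and Fam162a (-0.13 to 0.13) were tighter, and that of Ankrd37 (-0.19 to 0.59) was the widest of the 7.

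**Figure D4:**
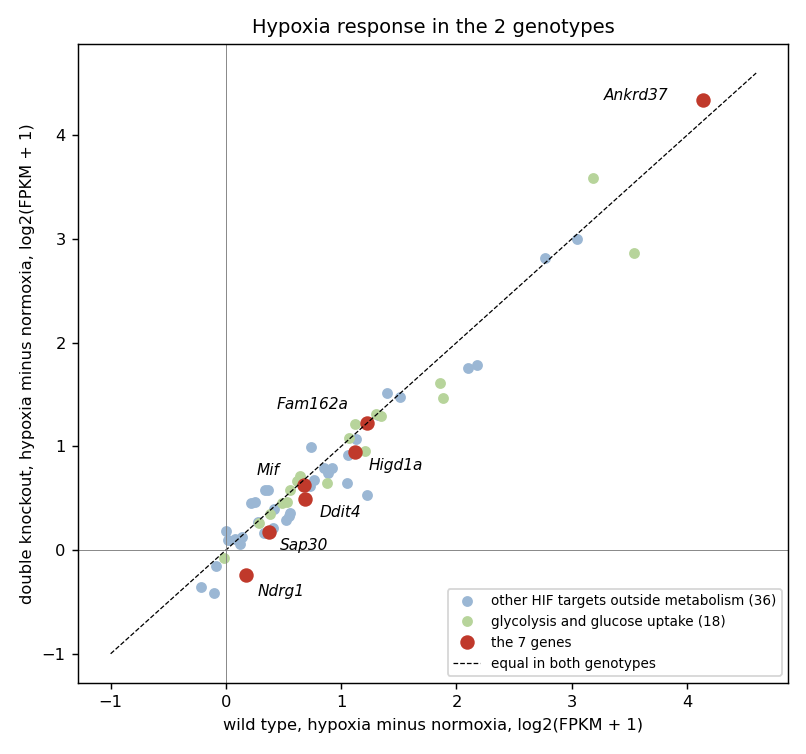
Hypoxia minus normoxia in wild type (x axis) and in the double knockout (y axis), both as differences of log2(FPKM + 1). Red points are the 7 genes, blue points 36 other HIF targets outside metabolism, green points 18 genes of glycolysis and glucose uptake, and the dashed line marks equal responses. Ankrd37 is at 4.14 and 4.34, and Ndrg1 lies under the horizontal zero line at 0.18 and -0.24.

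Other HIF targets and the partners of the 7 genes were counted in lists made with earlier results known. Of 36 tested HIF targets outside metabolism (of 44 listed), 29 rose in wild type and 27 rose and 3 fell in the double knockout, with medians of 0.56 and 0.55. These are 80.6% and 83.3% called, where 20.8% and 39.3% of all tested genes were. The 3 that fell were Tgfb3 (-0.41), Insig2 (-0.36) and Edn1 (-0.15), and the calls of Insig2 and Edn1 ended in 6 and 3 of 15 alternatives (highest limma adjusted p = 0.618 and 0.0842). Among those that rose, Bnip3, which acts in mitophagy, had the smallest p in both (limma log2 difference 3.05 and 3.00), and the others named by the rule were the prolyl hydroxylase Egln3 (2.10 and 1.76), the collagen lysyl hydroxylase Plod2 (1.32 and 1.30) and the histone demethylase Kdm3a (1.51 and 1.48). Between genotypes 9 of the 36 passed in normoxia (7 higher and 2 lower in the double knockout) and 9 in hypoxia (4 higher and 5 lower), which is 25% of them, against 8.16% and 16.1% of all tested genes. The chemokine receptor Cxcr4 (0.33 in normoxia and 0.57 in hypoxia) and the growth factor Pgf (0.27 and 0.26) were higher in the double knockout at both levels. Egln3 (0.33) was higher in normoxia, and the growth factor Tgfb3 (-0.42) and Hilpda, of lipid droplets (-0.68), were lower in hypoxia. In the difference between responses none of the 36 passed in limma, with 11 at an unadjusted p under 0.05. Of all 11378 tested genes, 1820 were under that unadjusted p.

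Among the oxygen-sensing genes, 8 of 10 were tested, with 4 higher and 1 lower in wild type hypoxia and 4 higher and 2 lower in double knockout hypoxia. These are 62.5% and 75% called, where 20.8% and 39.3% of all tested genes were. Hif1a itself rose in both genotypes (0.44 and 0.61), as did Vhl (0.62 and 0.61), Egln1 (1.06 and 0.92) and Egln3. Egln1 and Egln3 are counted among the HIF targets too. Hif1an, the asparagine hydroxylase that restrains HIF, fell in both (-0.21 and -0.28, limma adjusted p = 0.0300 and 0.00378), and the wild type call ended in 10 of 14 alternatives (highest adjusted p = 0.0781). Arnt, the HIF partner subunit, fell in the double knockout (-0.30, limma adjusted p = 0.0381), a call that 7 of 15 ended (highest adjusted p = 0.383). Between genotypes 8.16% of all tested genes passed in normoxia and 16.1% in hypoxia. Of the 8, 1 passed in normoxia, Egln3, and 1 in hypoxia (12.5% each). That one was Hif1a, higher in double knockout hypoxia, at 155.0 to 164.4 FPKM against 127.0 to 146.1 FPKM (limma log2 difference 0.23, adjusted p = 0.00630). Of 18 tested genes of glycolysis and glucose uptake 17 rose in each genotype, with medians of 0.97 and 0.83. That is 94.4% called in each, where 20.8% and 39.3% of all tested genes were. The smallest p-values were those of Pdk1 (1.85 and 1.61), Tpi1 (1.34 and 1.29) and Ldha (1.30 and 1.31), with the lactate carrier Slc16a3 in wild type (3.54) and Pfkfb3 in the double knockout (3.59). Between genotypes 4 of the 18 passed in normoxia, Pdk1 (0.30), Pkm (0.17) and Slc16a3 (0.49) higher and Hk2 (-0.40) lower in the double knockout. In hypoxia 2 passed, Pkm higher (0.15) and Hk2 lower (-0.81). These shares of 22.2% and 11.1% stand beside 8.16% and 16.1% of all tested genes. The calls of Pdk1 in normoxia and Hk2 in hypoxia held under all 15 alternatives, and the others were lost in 1 to 5 of them.

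Of the close relatives of the 7 genes 7 were tested, and 2 were called with hypoxia in each genotype (28.6%, where 20.8% and 39.3% of all tested genes were called). Ndrg2, of the same family as Ndrg1, rose from 7.82 ± 0.788 to 12.0 ± 0.498 FPKM in wild type and from 8.68 ± 0.558 to 13.1 ± 0.590 FPKM in the double knockout (SD, n = 3, limma log2 differences 0.56 and 0.55, adjusted p = 0.000247 and 8.98e-05). Ndrg3 stayed between 14.2 and 15.7 FPKM in the 12 libraries and was not called. Sap30l, the paralogue of Sap30, was at 30.5 to 39.6 FPKM and Higd2a at 40.1 to 51.1 FPKM, and neither was called in either genotype. Ddit4l was lower in wild type hypoxia (-0.27, limma adjusted p = 0.0468), a call that 10 of 15 alternatives ended (highest adjusted p = 0.179), and Ndrg4 was higher in double knockout hypoxia (0.14, limma adjusted p = 0.0483), a call that 9 of 15 ended (highest adjusted p = 0.226). Between genotypes 1 of the 7 relatives passed in normoxia, Ndrg4, lower in the double knockout (-0.23, limma adjusted p = 0.0178), and 6 of 15 alternatives ended that call (highest adjusted p = 0.151). That is 14.3% of the 7, where 8.16% of all tested genes passed. In hypoxia none passed in limma, with 2 at an unadjusted p under 0.05, where 3341 of all 11378 tested genes were. Higd1b reached at most 0.181 FPKM and Fam162b is listed at 0 in all libraries.

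Around Ddit4, 13 of 16 genes of mTORC1 and the TSC complex were tested, and 2 passed in wild type and 3 in the double knockout (15.4% and 23.1%, where 20.8% and 39.3% of all tested genes did). Eif4ebp1, a translation repressor that mTORC1 inactivates, rose in both (0.28 and 0.20; in the double knockout limma adjusted p = 0.00253, and 0.0644 after quantile normalization). The stress gene Sesn1 was lower as a gene in both (-0.31 and -0.44), while its most abundant transcript taken alone had the other sign and did not pass. The third call in the double knockout was Rps6kb1, a kinase that mTORC1 activates (0.17, limma adjusted p = 0.0453), and 8 of 15 alternatives ended it (highest adjusted p = 0.143). None of the 13 passed between genotypes in normoxia in limma, with 3 at an unadjusted p under 0.05. Of all 11378 tested genes, 2447 were under that unadjusted p. In hypoxia 3 passed (23.1%, where 16.1% of all tested genes did), Eif4ebp1 (-0.19) and Sesn1 (-0.24) lower and Sesn3, of the same family as Sesn1, higher (0.25) in the double knockout. Those calls ended in 2, 6 and 8 of 15 alternatives (highest limma adjusted p = 0.0526, 0.229 and 0.150).

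Around Sap30, all 16 genes of the SIN3 complex were tested, with 3 lower in wild type hypoxia and 3 higher and 5 lower in double knockout hypoxia. These shares of 18.8% and 50.0% stand beside 20.8% and 39.3% of all tested genes. In wild type the calls of Ing1 (-0.17), Brms1l (-0.20) and Sin3a (-0.43) each ended in 7 or 8 of 15 alternatives (highest limma adjusted p = 0.127, 0.124 and 0.992). In the double knockout the smallest p-values were those of Ing2 (-0.40), Brms1 (-0.24), Fam60a (-0.21) and Ing1 (-0.21), which passed under every alternative run. Between genotypes none of the 16 passed in normoxia in limma, with 3 at an unadjusted p under 0.05. Of all 11378 tested genes, 2447 were under that unadjusted p. In hypoxia 3 passed (18.8%, where 16.1% of all tested genes did), Fam60a (-0.35) and Ing2 (-0.27) lower and Rbbp7 (0.16) higher in the double knockout. Fam60a passed under all 15 alternatives, and the calls of Ing2 and Rbbp7 ended in 12 and 7 of them.

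Around Mif, 4 of 6 receptors and partners were tested. Its receptor chain Cd74 was at 0.0426 to 0.371 FPKM and so fell under the filter on low values. Cxcr4, a chemokine receptor that also binds MIF and is counted among the HIF targets too, rose in both genotypes (0.22 and 0.45) and was the single one of the 4 called in wild type hypoxia and between genotypes in normoxia. Ackr3, a scavenging receptor that also binds MIF, was at 1.93 to 2.21 FPKM in all wild type libraries, at 2.67, 1.80 and 2.85 FPKM in double knockout normoxia and at 0.616, 0.804 and 0.942 FPKM in double knockout hypoxia (limma log2 difference -0.94, adjusted p = 7.10e-05). Cops5 (0.16) and Cd44 (0.41) were also called in double knockout hypoxia, and those calls ended in 2 of 15 and 6 of 14 alternatives. Between genotypes in hypoxia 2 of the 4 passed, Cxcr4 higher (0.57) and Ackr3 lower (-0.78) in the double knockout. Calls with hypoxia covered 25% of the 4 in wild type and 100% in the double knockout, where 20.8% and 39.3% of all tested genes were called. Between genotypes they covered 25% in normoxia and 50% in hypoxia, where 8.16% and 16.1% of all tested genes passed. Around Fam162a and Higd1a, 9 of 10 mitochondrial genes were tested. Bnip3 and Bnip3l, both counted among the HIF targets too, were the 2 called in wild type. In the double knockout Vdac1 (0.13) and Vdac2 (0.14) were called as well. Those 2 lost their calls in 4 and 7 of 15 alternatives (highest limma adjusted p = 0.277 and 0.284). Calls with hypoxia covered 22.2% of the 9 in wild type and 44.4% in the double knockout, where 20.8% and 39.3% of all tested genes were called. Between genotypes none of the 9 passed in limma at either oxygen level, with 1 at an unadjusted p under 0.05 in each. Of all 11378 tested genes, 2447 in normoxia and 3341 in hypoxia were under that unadjusted p.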

How the data were processed

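RNA was sequenced from 12 libraries of mouse lung endothelial cells. The labels' protocols name RNeasy Plus for extraction and NEBNext Ultra for library construction. Alignment was with TopHat2, per the submitters' processing notes, while quantifier, genome build and annotation were not given in the sources used here. The authors deposited FPKM values of 52655 transcripts, which were summed to 23422 gene identifiers. Testing covered 11378 genes whose mean reached 1 FPKM, on log2(FPKM + 1), which understates changes of low genes, and all 7 members passed this filter. limma 3.58.1 in R 4.3.3 fitted 1 coefficient per group to all 12 libraries with a variance trend, and p was adjusted by Benjamini-Hochberg over all tested genes within a comparison. The steps were tested on simulated data.

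The members and lists were chosen with earlier results of these data known. All 7 members are named, with up to 4 genes of a list by smallest p among those that passed in a comparison (up to 2 by highest mean FPKM where none did), and the genes most alike by Pearson's r over 12 libraries. The HIF targets that fell in the double knockout, Hif1an, Arnt, Ndrg3, Higd1b, Fam162b and Cd74 fall outside this rule and were named after their values were seen, and 1 gene that the rule would name is not reported here. Depth was estimated from steps in low FPKM values of 9786 single-transcript genes (90.0 to 92.4% of them lay no further than 0.1 from a whole fragment number). Positions are those of GENCODE M21 on GRCm38, where 95.2% of transcript identifiers were found. Near-identical transcripts were sought with BLAST 2.17.0. Symbols Castor1 and Castor2 of the mTORC1 list matched no row. Alternatives are given in the closing section.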

Additional observations from a re-analysis of the deposited data

Results flagged for a closer look

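Ndrg1 was picked out because its libraries moved in opposite directions in the 2 genotypes, above normoxia in all 3 wild type hypoxia libraries and below it in all 3 of the double knockout. The test of the difference itself gave -0.41 on the log2 scale and did not pass (limma adjusted p = 0.0787).

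Ackr3 was picked out because its hypoxia response differed between genotypes (-0.99 on the log2 scale, limma adjusted p = 0.0354, with a double knockout hypoxia level under 1 FPKM). This call ended in 15 of 19 alternatives, among them a fit without any 1 of 10 libraries (highest adjusted p = 0.156).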

How the results depend on the processing

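The settings tried were adding 0.1 in place of 1 before the logarithm, testing every gene or those reaching 5 FPKM on average, normalizing by quantiles or to equal medians, fewer libraries in the fit, no variance trend, the most abundant transcript alone, a replicate block and leaving out each library. Ddit4 in normoxia kept its call in all 15 that apply to it (0.25 to 0.37, highest limma adjusted p = 0.0419), as did Ndrg1 in hypoxia (-0.42 to -0.30, highest limma adjusted p = 0.0170). Leaving out 1 library gave 1 to 2 members called in normoxia, 1 to 2 in hypoxia and 0 to 1 in the difference between responses. The near-zero differences of Fam162a changed sign with quantile normalization (-0.0142 in normoxia, -0.0214 in hypoxia and -0.00719 for the responses) and with 1 library left out (-0.0469 to 0.0284, -0.0158 to 0.0179 and -0.0259 to 0.0494), and that of Higd1a in normoxia ran from -0.0131 to 0.121. The cause was not tested.

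Over all genes, the 22 calls for the difference between responses became 12 with quantile normalization, 6 with no variance trend, 0 with the most abundant transcript and 1 to 39 with 1 library left out (39 without wild type hypoxia library 1, and at most 4 without any 1 library of wild type normoxia or double knockout normoxia). The 929 calls between genotypes in normoxia became 616 with the compared libraries alone, 511 with the most abundant transcript and 583 to 806 with 1 library left out (fewest without wild type normoxia library 2, and 617 without double knockout normoxia library 2). In hypoxia 1832 became 1102 with the most abundant transcript and 1175 to 1425 with 1 library left out (fewest without wild type hypoxia library 2, and 1185 without double knockout hypoxia library 1), and the 2370 calls of wild type hypoxia became 1453 and 1382 to 2351 (fewest without wild type hypoxia library 1, and 1495 without library 2). Libraries with the same number in different groups shared little of their deviation from the group means (r from -0.0841 to 0.167). Pairs with different numbers were not compared, so a pairing by number is not excluded. With the replicate block the 22 calls became 1, and no call of the 7 genes between genotypes changed (Ddit4 in normoxia limma adjusted p = 0.0217, Ndrg1 in hypoxia 0.00251). Depth limits Ankrd37 in normoxia the most, at 38 to 61 fragments.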
